A study of Mus musculus with 6 samples.

Results

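The ST6GAL and ST8SIA sialyltransferases, 8 Golgi enzymes, and Ncam1, the main carrier of polysialic acid, were followed in mouse cortical neuron cultures given a short hairpin RNA (shRNA) against Cugbp1. A probe set of the exon array was assigned to a member where the platform's probe annotation gave that gene's symbol alone. This gave 9 genes of 22071 and 152 probe sets. The members were chosen from knowledge of sialic acid chemistry, but with the knockdown against control values of these same arrays in view, in which St6gal1 had already been named among the larger rises. The members' levels, changes and calls are therefore given as descriptions, without p-values.

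Sialyltransferases move sialic acid from CMP-sialic acid onto the ends of glycan chains in the Golgi, and they are grouped by the linkage they form. The ST6GAL enzymes, St6gal1 and St6gal2, cap galactose on N-glycans in alpha-2,6 linkage. The ST8SIA enzymes add sialic acid to sialic acid in alpha-2,8 linkage, on gangliosides (St8sia1, St8sia5, St8sia3), on O-glycans (St8sia6) or as long polysialic acid chains (St8sia2, St8sia4). Polysialic acid on NCAM weakens cell adhesion and is abundant in the developing brain, where it accompanies migration, neurite growth and plasticity.

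The cultures came from the cortex of C57BL/6 mouse embryos at embryonic day 15 and received AraC, which removes dividing cells, early in culture. All were infected with lentivirus for 4 hours on day 5 and harvested on day 11 after 6 further days. Of the 6 arrays, 3 were of a control shRNA and 3 of the shRNA against Cugbp1, the older symbol of Celf1. Celf1 is an RNA-binding protein acting in splicing, mRNA decay and translation. The labels name 1 Cugbp1 shRNA, so effects of that hairpin other than lowering Celf1 cannot be told apart from it, and they do not say what the control shRNA targets. In replicates 2 and 3, control and knockdown alike, the labels' treatment field mentions Tdp-43 as the shRNA target, and the series' design text speaks of motor neurons.

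Each array started from 100 ng of total RNA and gave 1195555 probe set values on the log2 RMA scale, with array medians between 5.74 and 5.78. Probe sets whose 6-array mean fell short of 5.73, the median over the whole array, were left out, and the remaining ones of a gene, 3 or more, were summarised to 1 value per array by median polish. All 9 members passed, with 140 probe sets kept and 12 not kept, 9 of which belonged to St8sia6. Knockdown minus control was estimated with limma over 16524 genes, and a call means a Benjamini-Hochberg adjusted p under 0.05. By this rule 184 genes (1.11%) were called higher in the knockdown and 475 (2.87%) lower. Celf1 itself was at 10.85, 10.79 and 10.75 in control replicates 1, 2 and 3 and at 9.59, 9.40 and 9.33 in the knockdown replicates, which is 39.1% of the control level (limma, adjusted p = 0.0118). Nothing in the labels says whether the 3 arrays of a group came from separate cultures. With 3 arrays per group, their number limits the precision of every value, and since a probe's brightness depends on its sequence, levels are compared between groups and never between genes.

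Of the 9 members, St6gal1 was called higher, St6gal2 and St8sia2 were called lower, and the other 6 were not called. Among all genes tested, 1.11% were called higher and 2.87% lower. The members' median log2 change was -0.17, beside -0.015 over all genes tested. In 3 members every knockdown array lay above every control array, in 4 every knockdown array lay below, and in 2 the groups overlapped. Over all genes the first pattern held for 10.8% and the second for 14.4%. Since the members were chosen with this contrast known, nothing is read from these shares.

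**Figure D1:**
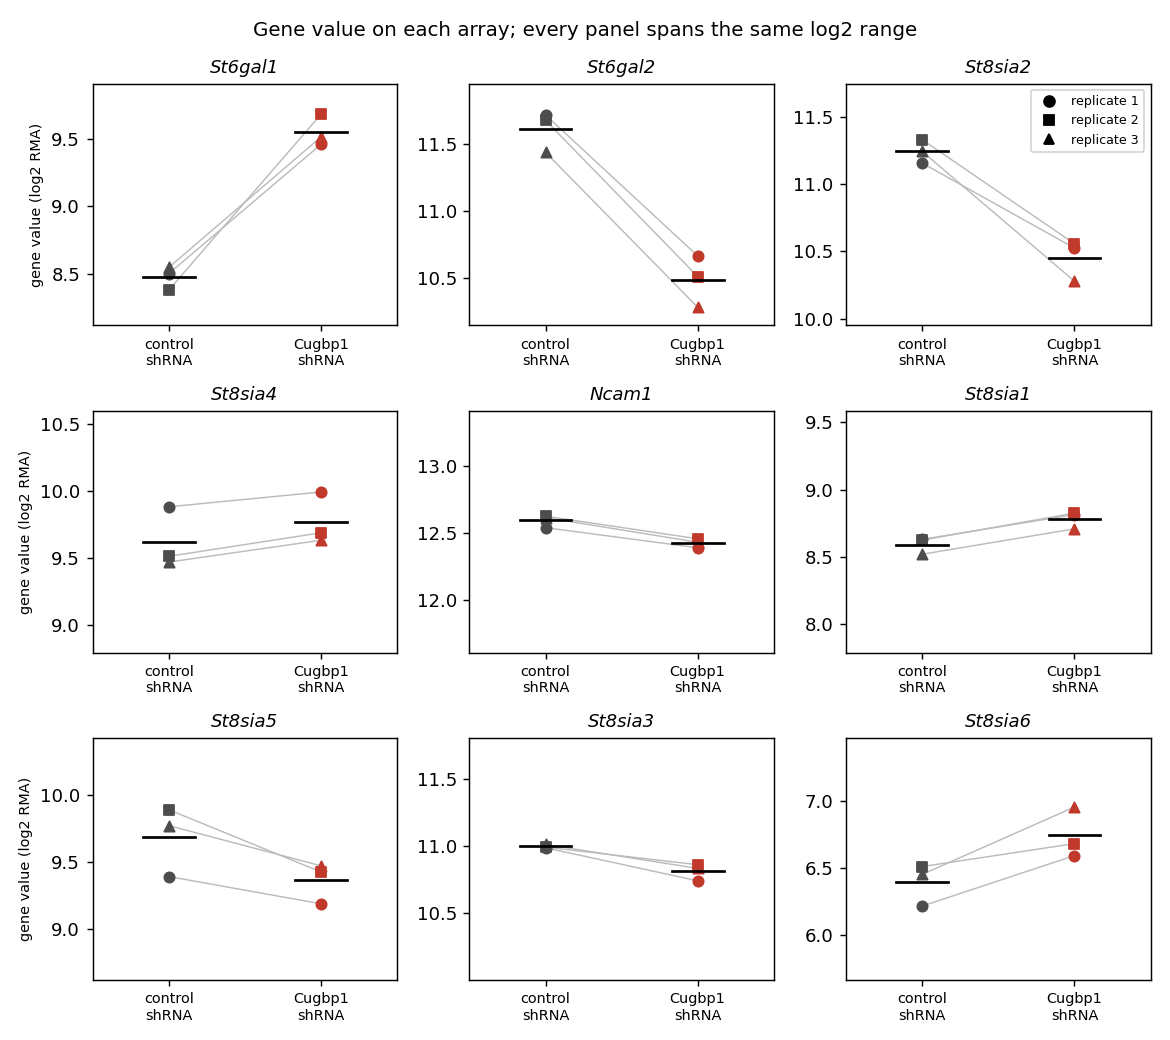
Gene values of the 9 members on each of the 6 arrays, on the log2 RMA scale, with 1 panel per gene, control shRNA and Cugbp1 shRNA side by side, points marked by replicate and joined by number, and a bar at each group's mean. St6gal1 lies between 8.38 and 8.55 in control and between 9.46 and 9.69 in knockdown arrays, St6gal2 and St8sia2 separate the other way, and the groups overlap in St8sia4 and St8sia5.

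The 2 alpha-2,6 enzymes moved in opposite directions. St6gal1, the widely expressed enzyme that caps N-acetyllactosamine ends of N-glycans, rose to 2.11 times its control level. St6gal2, the relative with a narrower, brain-centred expression, fell to 46.0% of its control level. Among 16524 genes ranked by log2 change, St6gal1 had rank 15 from the top and St6gal2 rank 15 from the bottom.

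St6gal1 had log2 values of 8.50, 8.38 and 8.55 in control replicates 1, 2 and 3 and of 9.46, 9.69 and 9.52 in the knockdown replicates. The lowest knockdown array thus lay above the highest control array. The log2 change was 1.08 with a standard error of 0.10 and a 95% confidence interval of 0.85 to 1.32, or 1.80-fold to 2.49-fold. Within same-numbered replicates the differences were 0.96, 1.31 and 0.97, so replicate 2 carried the widest gap.

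St6gal2 had log2 values of 11.71, 11.67 and 11.43 in control replicates 1, 2 and 3 and of 10.66, 10.51 and 10.28 in the knockdown replicates. In both groups replicate 1 was highest and replicate 3 lowest, and the groups stayed far apart. The log2 change was -1.12 with a standard error of 0.13 and a 95% confidence interval of -1.43 to -0.82. Same-numbered replicates differed by -1.05, -1.16 and -1.15, a narrower range than for St6gal1. The change of St6gal1 minus that of St6gal2 was 2.20 on the log2 scale, and 2.01, 2.47 and 2.12 within the replicates.

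For the 3 called members the 250 bases before each transcription start are shown. They come from RefSeq on GRCm38.p6, which lists 3 separate starts for St6gal1 on the plus strand (chr16:23224490-23224739, chr16:23225771-23226020 and chr16:23290220-23290469). St6gal2 has 1 start, on the plus strand (chr17:55445132-55445381), and St8sia2 has 1, on the minus strand (chr7:74013683-74013932). Each is written 5′ to 3′ along the gene, with matches in capitals to the GC box (GGGCGG, the site known for Sp1), the CCAAT box (CCAAT, the site known for NF-Y) and the TATA box (TATAAA), each searched on both strands, where CCAAT reads ATTGG on the other strand.
St6gal1 start 1: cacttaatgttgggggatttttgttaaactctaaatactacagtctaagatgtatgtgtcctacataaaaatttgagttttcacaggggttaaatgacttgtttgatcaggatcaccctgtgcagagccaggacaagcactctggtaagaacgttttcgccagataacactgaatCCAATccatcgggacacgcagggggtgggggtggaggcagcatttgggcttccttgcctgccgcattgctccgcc
St6gal1 start 2: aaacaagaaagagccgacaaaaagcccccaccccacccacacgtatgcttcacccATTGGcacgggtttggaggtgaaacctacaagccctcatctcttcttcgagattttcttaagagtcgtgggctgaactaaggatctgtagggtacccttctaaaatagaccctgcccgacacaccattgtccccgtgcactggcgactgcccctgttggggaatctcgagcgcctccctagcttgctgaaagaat
St6gal1 start 3: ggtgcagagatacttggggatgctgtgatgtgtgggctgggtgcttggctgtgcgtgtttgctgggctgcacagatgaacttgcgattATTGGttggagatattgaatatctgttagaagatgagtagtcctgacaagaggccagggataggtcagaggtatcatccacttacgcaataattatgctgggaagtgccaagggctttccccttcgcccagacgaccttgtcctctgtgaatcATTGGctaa
St6gal2: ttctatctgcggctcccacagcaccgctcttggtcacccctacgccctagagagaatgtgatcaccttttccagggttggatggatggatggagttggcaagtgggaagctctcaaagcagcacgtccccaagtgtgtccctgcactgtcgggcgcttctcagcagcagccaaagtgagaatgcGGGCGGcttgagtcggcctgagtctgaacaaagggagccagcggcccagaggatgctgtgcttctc
St8sia2: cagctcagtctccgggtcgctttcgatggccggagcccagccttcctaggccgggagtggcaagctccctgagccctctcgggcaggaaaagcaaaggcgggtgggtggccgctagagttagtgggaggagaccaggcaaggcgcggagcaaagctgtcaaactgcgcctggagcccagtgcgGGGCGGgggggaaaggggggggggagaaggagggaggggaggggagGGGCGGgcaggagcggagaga

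The 3 St6gal1 windows held 1, 1 and 2 CCAAT boxes and no GC box, with 47.2%, 52.8% and 49.6% G and C and 6, 10 and 5 CpG dinucleotides. The St6gal2 window held 1 GC box, whose first base lay 66 bases before the start, no CCAAT box, 58.4% G and C and 10 CpG. The St8sia2 window held 2 GC boxes, whose first bases lay 67 and 21 bases before the start, no CCAAT box, 68.8% G and C and 15 CpG. None of the 5 windows held a TATA box. Among 32851 windows of the same length, 32.7% held a GC box, 33.8% a CCAAT box and 12.4% a TATA box, with a median of 52.4% G and C and 6 CpG. The windows of the uncalled St8sia4 and St8sia1 each held 1 GC box and 1 CCAAT box, and that of St8sia6 held none of the 3 motifs. St8sia3, St8sia5 and Ncam1 had no window. Any tie between these motifs and the direction of a change was not tested. A match is a run of letters and not a shown binding site, and probe sets were not placed on the genome, so the arrays do not say which St6gal1 start was in use.

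The 2 polysialyltransferases did not move together. St8sia2, the polysialyltransferase that predominates in the embryonic brain, fell to 57.8% of its control level. St8sia4, the polysialyltransferase that persists in the adult brain, was not called, and its control and knockdown arrays overlapped. Ncam1, the glycoprotein that carries most polysialic acid, was at 89.1% of control and was not called.

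St8sia2 had log2 values of 11.16, 11.33 and 11.24 in control replicates 1, 2 and 3 and of 10.53, 10.56 and 10.28 in the knockdown replicates. No knockdown array reached the lowest control array. The log2 change was -0.79 with a standard error of 0.11 and a 95% confidence interval of -1.04 to -0.54, which as a level is 48.5% to 69.0% of control. Replicates 1, 2 and 3 differed by -0.63, -0.77 and -0.97.

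St8sia4 had log2 values of 9.88, 9.51 and 9.47 in control replicates 1, 2 and 3 and of 9.99, 9.69 and 9.63 in the knockdown replicates. Replicate 1 was the highest in both groups, and control replicate 1 lay above knockdown replicates 2 and 3. The log2 change was 0.15 with a standard error of 0.15 and a 95% confidence interval of -0.20 to 0.50, so neither a small fall nor a modest rise lies outside it. The differences within replicates were 0.11, 0.18 and 0.16. The change of St8sia2 minus that of St8sia4 was -0.94, and -0.74, -0.95 and -1.13 within the replicates.

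Ncam1 had log2 values of 12.54, 12.63 and 12.62 in control replicates 1, 2 and 3 and of 12.39, 12.46 and 12.43 in the knockdown replicates. The groups did not overlap, but the gap was narrow. The log2 change was -0.17 with a standard error of 0.08 and a 95% confidence interval of -0.36 to 0.03, and the replicates differed by -0.15, -0.17 and -0.18.

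Among the ganglioside enzymes none was called. St8sia1, the GD3 synthase that opens the b-series of gangliosides, had log2 values of 8.63, 8.62 and 8.52 in control replicates 1, 2 and 3 and of 8.81, 8.83 and 8.71 in the knockdown replicates. Its groups did not overlap, with a log2 change of 0.19, a standard error of 0.09 and a 95% confidence interval of -0.02 to 0.40. St8sia5, which acts on more complex gangliosides late in the pathway, had log2 values of 9.39, 9.89 and 9.77 in control replicates 1, 2 and 3 and of 9.19, 9.43 and 9.47 in the knockdown replicates. Control replicate 1 lay below knockdown replicates 2 and 3, so the groups overlapped, although each pair differed downward, by -0.20, -0.46 and -0.30. The log2 change of St8sia5 was -0.32 with a standard error of 0.15 and a 95% confidence interval of -0.67 to 0.03. St8sia3, an enzyme concentrated in brain that acts on gangliosides and glycoproteins, had log2 values of 10.99, 10.99 and 11.01 in control replicates 1, 2 and 3 and of 10.74, 10.86 and 10.83 in the knockdown replicates. All knockdown arrays of St8sia3 lay below all control arrays, with a log2 change of -0.19, a standard error of 0.08 and a 95% confidence interval of -0.38 to 0.01.

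St8sia6, which adds alpha-2,8-linked sialic acid mainly to O-glycans, was not called. It had log2 values of 6.22, 6.51 and 6.45 in control replicates 1, 2 and 3 and of 6.59, 6.68 and 6.96 in the knockdown replicates. The knockdown arrays lay above the control arrays, by 0.38, 0.17 and 0.50 within replicates. The log2 change was 0.35 with a standard error of 0.13 and a 95% confidence interval of 0.04 to 0.65. With probe sets kept only above the 75th percentile the change was -0.0029. One of the probe sets behind the gene value, 4530218, passed the level filter only through its knockdown arrays.

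The array without a number in each group was taken as replicate 1, and the pairing by number was not tested further. Arrays given the same number varied together across genes, which a replicate 1 set apart in both groups could also give. The model was therefore also fitted with a term for each replicate number (a replicate block). With the block, limma called 2 members higher, St6gal1 and St8sia6, and 3 lower, St6gal2, St8sia2 and St8sia5, while over all genes it called 1545 (9.35%) higher and 2301 (13.9%) lower. The St8sia6 value includes probe set 4530218, which passed the level filter only through its knockdown arrays, so nothing is read from its call. The other 4 members, St8sia4, Ncam1, St8sia1 and St8sia3, were not called in either fit. Leaving out single arrays kept all 3 called members in direction, at 0.99 to 1.12 for St6gal1, -1.27 to -1.08 for St6gal2 and -0.84 to -0.70 for St8sia2. For the uncalled members the ranges were 0.021 to 0.27 for St8sia4, -0.15 to -0.094 for Ncam1, 0.085 to 0.17 for St8sia1, -0.49 to -0.22 for St8sia5, -0.20 to -0.13 for St8sia3 and 0.18 to 0.39 for St8sia6. The 3 called members stayed called without control replicate 1, and none was called without any 1 of the other 5 arrays. Those 6 fits called 0 to 105 genes higher and 0 to 186 lower over the whole array, beside 184 and 475 with all 6 arrays.

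**Figure D2:**
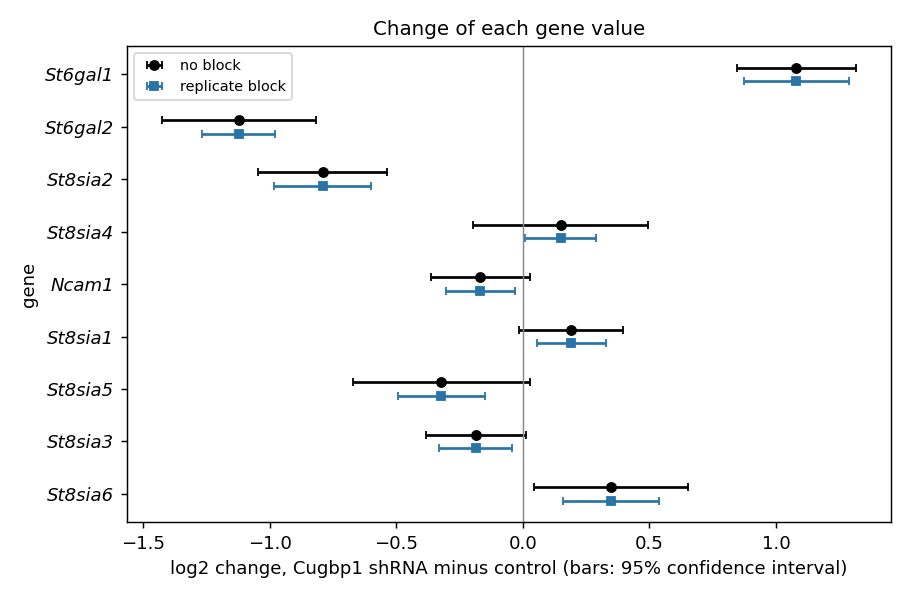
Log2 change of the gene value, Cugbp1 shRNA minus control, for each of the 9 members, from limma without a block (circles) and with the replicate block (squares), with bars for the 95% confidence intervals. Both fits give the same estimates, with St6gal1 at 1.08, St6gal2 at -1.12, St8sia2 at -0.79 and the other 6 between -0.32 and 0.35, and the block's bars are the shorter ones.

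Single probe sets, each covering a stretch of an exon, showed how evenly a gene's change was spread. Of the 140 kept, 22 had every knockdown array above every control array and 39 had every knockdown array below. Over all 597778 kept probe sets these shares were 5.44% and 6.57%. No single probe set of any gene was called over the whole array (0 of 597778, or 0%, with limma at an adjusted p under 0.05, smallest 0.417), while 35379 had an unadjusted p under 0.05.

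St6gal1 was higher across its kept probe sets. All 14 kept probe sets had a higher mean in the knockdown, with changes from 0.44 to 1.26 and a median of 1.05, and in 13 the groups did not overlap. The exception, probe set 5586940, had the lowest level of the 14, with values of 5.65, 5.94 and 6.26 in control and 6.06, 6.57 and 6.54 in knockdown replicates. Its change of 0.44 was 0.64 below that of the other probe sets, with a standard error of 0.20 that is pooled over the gene's probe sets. Probe sets 4478248 and 5115572 changed most, by 1.26 and 1.23. The 1 probe set not kept, 4492251, lay at a mean of 5.24 and changed by -0.11.

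St6gal2 fell in 15 of its 16 kept probe sets' means, and in those 15 the groups did not overlap. The changes ran from -1.52 to 0.47 with a median of -1.18. The largest fall was at probe set 4649808, with values of 10.87, 11.17 and 10.52 in control and 9.63, 9.29 and 9.08 in knockdown replicates. Probe set 4659271 changed less, by -0.46, with values of 10.39, 10.75 and 10.34 in control and 9.75, 10.17 and 10.18 in knockdown replicates. Probe set 4920564 differed in sign, with values of 7.28, 6.07 and 6.14 in control and 7.43, 6.89 and 6.58 in knockdown replicates. Its groups overlapped because control replicate 1 was high, and its level, a mean of 6.73, was the lowest of the 16. The 1 St6gal2 probe set not kept, 4436059, lay at a mean of 5.56 and changed by 0.62, with overlapping groups.

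**Figure D3:**
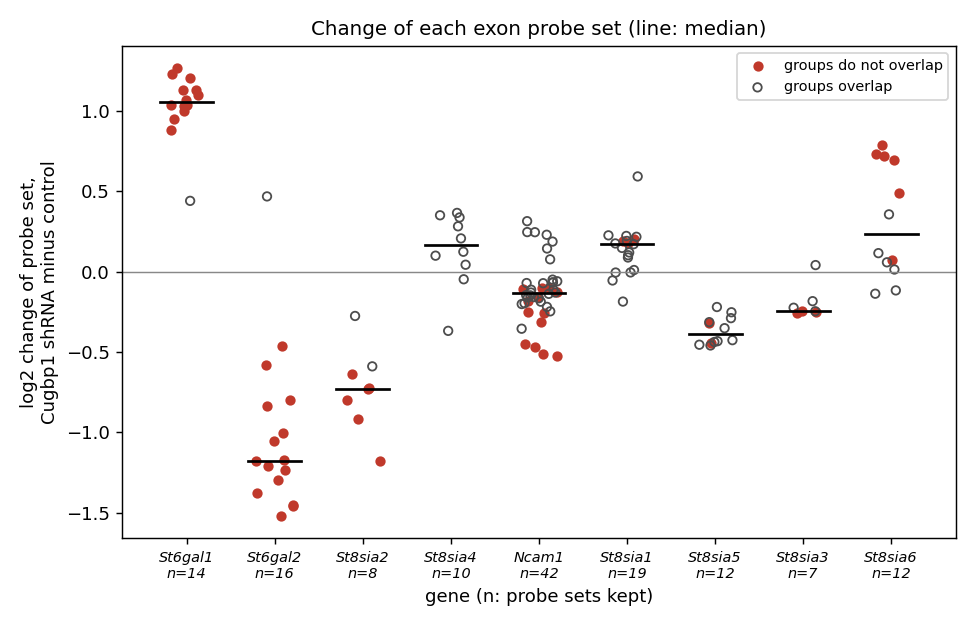
Log2 change, Cugbp1 shRNA minus control, of each of the 140 kept probe sets, with 1 column of points per member and a line at the member's median. Filled points have groups that do not overlap and open points have groups that do. The 14 St6gal1 points lie between 0.44 and 1.26, 15 of the 16 St6gal2 points and all 8 St8sia2 points lie below 0, and all 10 St8sia4 points are open.

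Relative use of probe sets within a gene was estimated with limma's diffSplice, which sets each probe set against the others of its gene. Over 244606 probe sets, 108 (0.0442%) were called relatively higher and 93 (0.038%) relatively lower. Among the members' 140 there was 1 call, St6gal2 probe set 4920564, which was 1.58 higher relative to the rest of the gene. Its standard error of 0.24 is pooled over the gene's probe sets and is the same for each of them. The probe set's own control values had a standard deviation of 0.68, and its limma change a standard error of 0.38. Without single arrays the relative change of 4920564 was 1.30 to 1.92, and it was not called without control replicate 2, where it was 1.30. It was not kept under the 75th percentile filter. The part of its low level in this value was not tested. With the replicate block 10 member probe sets were called, 5 of St6gal2, 2 of St8sia2, 2 of Ncam1 and 1 of St6gal1, while over all probe sets the block gave 2923 (1.19%) relatively higher and 2883 (1.18%) relatively lower.

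**Figure D4:**
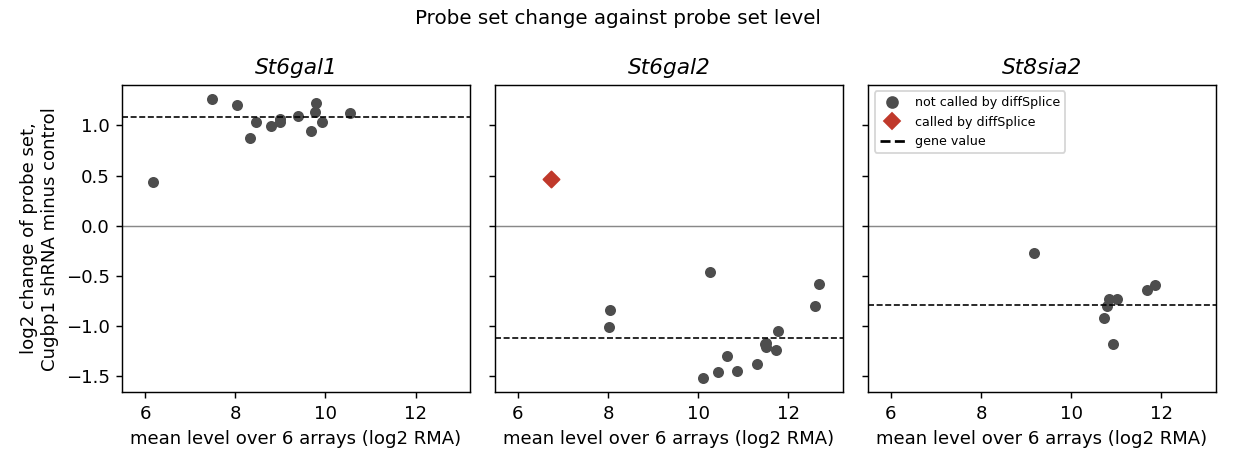
Log2 change of each kept probe set, Cugbp1 shRNA minus control, against its mean log2 RMA level over the 6 arrays, for St6gal1, St6gal2 and St8sia2, with the gene value as a dashed line. The probe set nearest to or beyond 0 is in each gene the one of lowest level, at 6.17 in St6gal1, 6.73 in St6gal2 and 9.17 in St8sia2, and the diamond is the only member probe set called by diffSplice.

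St8sia2 was lower in the knockdown in the mean of all 8 probe sets, from -1.18 to -0.28 with a median of -0.73, and in 6 the groups did not overlap. Probe set 5267724 changed most, with values of 11.44, 11.73 and 11.37 in control and 10.43, 10.46 and 10.11 in knockdown replicates. Probe set 5459233 changed least, with values of 9.02, 9.32 and 9.59 in control and 8.92, 8.90 and 9.29 in knockdown replicates, and it had the lowest level of the 8. Relative to the rest of the gene these differed by -0.51 and 0.52, each with the gene's pooled standard error of 0.21, and neither was called.

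In St8sia4 the groups overlapped in all 10 probe sets, with changes from -0.37 to 0.37. The 42 Ncam1 probe sets had a median change of -0.13, with 35 lower means, 13 of them without overlap, and a range from -0.52 to 0.31. Over all kept probe sets 6.57% were lower without overlap. The largest fall in Ncam1 was at probe set 5466825, with values of 11.53, 12.03 and 11.71 in control and 11.21, 11.24 and 11.25 in knockdown replicates. Ncam1 probe sets 4400195, 5261166 and 5511972 were among those that differed between replicates by more than between groups. Probe set 5261166 had values of 9.97, 8.16 and 8.72 in control and 9.99, 8.73 and 9.07 in knockdown replicates, so replicate 1 of both groups was high. Relative to the gene it was 0.45 higher in the knockdown, 0.067 to 0.92 without single arrays, and diffSplice called it with the replicate block and without control replicate 1 (0.92). Replicate 1 differed from replicates 2 and 3 by more than 1 on the log2 scale in these 3 of the members' 140 probe sets (2.14%), beside 37682 (6.30%) of all kept ones.

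St8sia5 had a lower mean in all 12 of its probe sets, within a narrow range of -0.46 to -0.22, with 2 free of overlap. St8sia1 had 15 higher means among 19, from -0.19 to 0.59, with 3 free of overlap. Over all kept probe sets 5.44% were higher and 6.57% lower without overlap. St8sia3 had 6 lower means among 7, with the largest fall of -0.25 at probe set 5059548 and a change of 0.041 at probe set 4490540. The probe sets of St8sia6 differed among themselves. Its brightest probe sets, 5578048, 5095280 and 4588150, at means of 11.3, 10.2 and 10.2, changed by 0.07, 0.06 and -0.12. Its other 9 kept probe sets lay at means of 5.82 to 7.17 and changed unevenly. Of these, 4337314, 4769603, 4530218 and 4427257 changed by 0.79, 0.73, 0.72 and 0.69, and 5303643 and 4805444 by 0.49 and 0.36. Probe set 4530218 had a control mean of 5.71, under the filter value of 5.73, and passed only through its knockdown mean of 6.43. The control mean of 4337314, 5.74, lay close to the filter value. The remaining ones at that level, 5439027, 4592827 and 5303836, changed by 0.12, 0.01 and -0.14. Of its 21 probe sets 9 fell short of the filter and 12 passed.

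The genes whose values followed St6gal2, the member with the largest absolute change, most closely over the 6 arrays were looked up among all tested genes. These were Snx25, a sorting nexin (Pearson r = 0.999, log2 change -0.63), Wdr55, a WD-repeat protein of the nucleolus (r = 0.998, -0.56), and Kif3b, a kinesin motor subunit (r = 0.997, -0.31). They were followed by Dclk1, a microtubule-associated kinase (r = 0.997, -0.37), Alg9, a mannosyltransferase that builds the N-glycan precursor (r = 0.996, -0.71), and Kcnt1, a sodium-activated potassium channel (r = 0.996, -0.54). In all, 46 genes had an r above 0.99. The 6 points of each correlation share arrays and 2 groups, so any gene with a clear difference between the groups and a like order of replicates scores high.

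Other genes of sialic acid metabolism were read from 7 lists of 69 genes, of which 66 were tested. None was called higher and 4 were called lower, at a median log2 change of -0.048. Over all genes 1.11% were called higher and 2.87% lower. The lists were chosen with earlier results of these data known, so the calls and adjusted p-values of their genes are descriptions. St3gal1, which adds alpha-2,3-linked sialic acid mainly to O-glycans, had log2 values of 10.80, 11.28 and 11.13 in control and 9.73, 10.29 and 10.09 in knockdown replicates 1, 2 and 3. It fell by 1.03 (standard error 0.18, limma adjusted p = 0.0298). St6galnac5, a brain enzyme that makes alpha-series gangliosides such as GD1alpha, had log2 values of 11.71, 11.76 and 11.60 in control and 10.57, 10.80 and 10.81 in knockdown replicates 1, 2 and 3. It fell by 0.96 (standard error 0.10, limma adjusted p = 0.0153). These were the called ones among 12 ST3GAL and ST6GALNAC enzymes, and St6galnac4 was at -0.48 (limma adjusted p = 0.0522).

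Siae, which takes O-acetyl groups off sialic acid, and Casd1, which puts them on, fell by 0.62 each (limma adjusted p = 0.0375 and 0.0298), the 2 called of 7 genes for removal and acetylation. The sialidase Neu1 was at -0.20 (limma adjusted p = 0.266). None of 9 genes of sialic acid supply was called, with the pathway's entry enzyme Gne at -0.22 (limma adjusted p = 0.250) and Renbp at -0.33 (limma adjusted p = 0.0960). None of 8 ganglioside core genes was called, with B3galt4 at -0.57 (limma adjusted p = 0.118) and the lactosylceramide synthase B4galt6 at 0.45 (limma adjusted p = 0.235). None of 13 genes of N-glycan branching and galactosylation was called, with the mannosidase Man2a1 at -0.40 (limma adjusted p = 0.0837). None of 9 other polysialic acid carriers and NCAM relatives was called, with Glg1, a Golgi glycoprotein, at 0.36 (limma adjusted p = 0.101), and none of 8 sialic acid binding lectins was. With the replicate block 4 of the 66 were called higher and 12 lower, beside 9.35% higher and 13.9% lower over all genes.

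**Figure D5:**
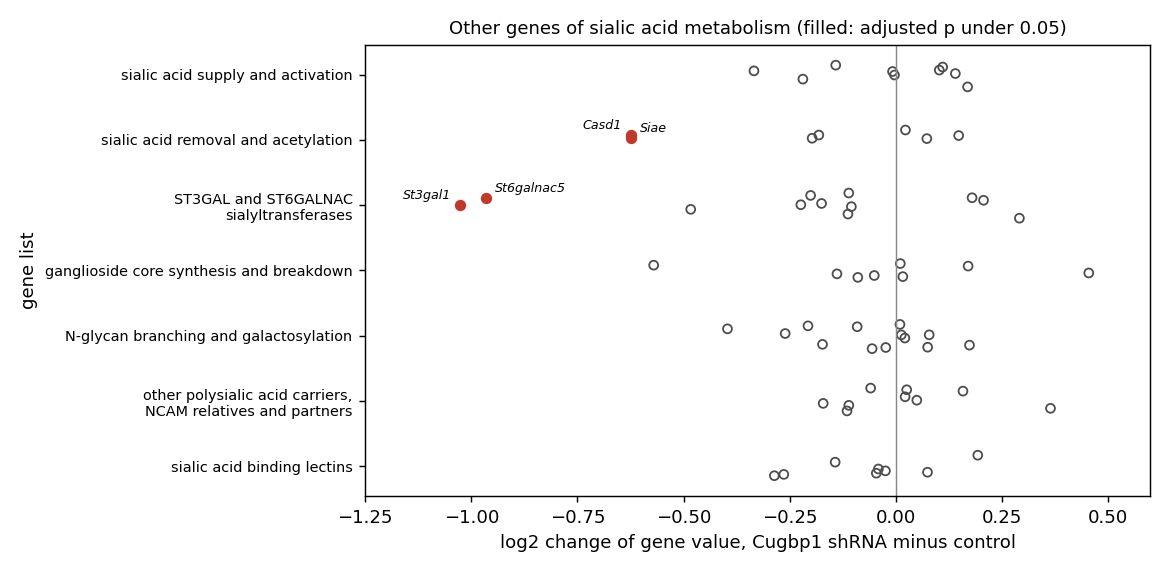
Log2 change of the gene value, Cugbp1 shRNA minus control, for the 66 tested genes of 7 sialic acid lists that are not members, with 1 row per list. The 4 filled points, called at a limma adjusted p under 0.05, all lie below 0, with St3gal1 at -1.03 and St6galnac5 at -0.96, and the open points were not called.

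In bulk RNA a lower value cannot be told apart between fewer cells of a type and less RNA per cell, so marker genes were read beside the members. The marker lists too were chosen with earlier results of these data known, so their calls and adjusted p-values are descriptions. Markers of the labelled cell type were mostly above the level filter. Of the probe sets of 7 pan-neuronal genes, 97.6% passed the level filter, but so did 96.2% for oligodendrocyte lineage, 89.6% for astrocyte and 89.2% for progenitor and dividing cell genes. The share was 72.1% for fibroblast and meningeal, 57.4% for microglial and 55.4% for endothelial and mural genes, so the filter did not single out neurons. The mean level of the pan-neuronal list ran from 11.93 to 12.07 in control and from 11.90 to 11.96 in knockdown arrays, with none of 7 called. All 7 glutamatergic genes tested had a lower mean in the knockdown, and the list's mean level ran from 10.61 to 10.73 in control and from 10.42 to 10.45 in knockdown arrays, with none called. Of 8 GABAergic genes Gad2 was called higher, at 0.77 (limma adjusted p = 0.0201), while 5 of the 8 had a lower mean and the list's median change was -0.055. The GABAergic list ran from 10.03 to 10.31 in control and from 10.22 to 10.35 in knockdown arrays.

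Astrocyte markers ran from 9.55 to 9.63 in control and from 9.42 to 9.69 in knockdown arrays, and oligodendrocyte lineage markers from 9.37 to 9.66 and from 9.53 to 9.66, with none called of 8 and of 7. Progenitor and dividing cell markers ran from 8.75 to 8.94 and from 8.88 to 9.14, with none of 7 called. Microglial markers ran from 6.60 to 6.91 and from 6.52 to 6.87, with none of 8 called. Among 7 endothelial and mural markers Pdgfrb was called lower, at -0.81 (6.74 to 7.23 in control and 6.70 to 6.96 in knockdown for the list), and among 7 fibroblast and meningeal markers Thbs1 was, at -0.72 (8.28 to 8.45 and 8.14 to 8.35). With the replicate block 3 glutamatergic genes (Camk2a, Neurod6 and Bcl11b) were called lower. In that fit 3 progenitor and dividing cell genes (Mki67, Top2a and Cdk1) were called higher, as was Gad1 beside Gad2. Lhx6, Aldh1l1 and C1qa, 1 gene each of the GABAergic, astrocyte and microglial lists, were called lower. Over all genes the block called 9.35% higher and 13.9% lower. The glutamatergic list's mean level was lower in every knockdown array than in every control array. Of the 9 members, 4 separated the groups downward and 3 upward, as 14.4% and 10.8% of all genes did. The part of any marker list in the members' values was not tested.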

How the data were processed

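Total RNA of mouse primary cortical neuron cultures was measured on 6 Affymetrix exon arrays, 3 of a control shRNA and 3 of a Cugbp1 shRNA. The deposited values are log2 RMA levels, 1 per exon probe set and array. The authors made them in Expression Console (Affymetrix), as the labels state, and the submitters' processing notes name the mm9 build. RMA corrects background and brings the arrays processed together to a shared distribution, which removes differences in total signal among them. Which arrays were processed together is not given in the sources used here. At matched percentiles the largest log2 gap among the 6 arrays was 0.0653. The deposited probe sets were used as given, and no 2 arrays held identical values.

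The platform's annotation gave 316997 probe sets a single gene symbol and 6571 several, and the latter were left out. Gene names follow RefSeq on GRCm38.p6, where 17988 symbols stood unchanged, 4213 were older synonyms and 63 had no match. Probe sets with a mean under the median of all (5.73) were left out, which kept 597778, and genes with at least 3 kept probe sets were summarised by Tukey median polish (16524 genes). Two-sided tests of knockdown minus control, with no further term, came from lmFit and eBayes of limma 3.58.1 (R 4.3.3), on gene values, on probe sets and, with diffSplice, on 244606 probe sets within genes. The Benjamini-Hochberg adjustment ran over all features of a fit, and a call is an adjusted p under 0.05. The same steps were tested on simulated data. Python 3.11.15 with numpy 2.4.6, pandas 2.3.3 and matplotlib 3.10.9 drew the figures, and the R package data.table (1.17.8) read the files.

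The titles number replicates 2 and 3, and the remaining array of each group was taken as replicate 1. Each gene's distance from its group mean correlated between the control and knockdown array of one number at 0.76, 0.50 and 0.71 for replicates 1, 2 and 3, across genes, which are not independent. A replicate 1 set apart in both groups could raise all 3 values even if replicates 2 and 3 were not paired. Between arrays, control replicate 2 correlated at 0.984 with knockdown replicate 2 and at 0.980 with knockdown replicate 3. Control replicate 3 correlated at 0.985 with knockdown replicate 3 and at 0.980 with knockdown replicate 2. The numbers were taken to pair the arrays, which was not tested further, and the replicate block was fitted beside the model without it.

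The named genes are all members, up to 3 probe sets per member with the largest relative change, the 6 genes most correlated with the member of largest change, and up to 3 genes per pathway list with the smallest p. Other probe sets named were chosen after their values were seen. The members and lists were chosen with earlier results of these data known. The alternatives were the replicate block, a block for the form of the label, quantile normalization, median centring, eBayes with trend and robust variances, no level filter, a filter at the 75th percentile, probe set means in place of median polish, and leaving out each array in turn.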

Additional observations from a re-analysis of the deposited data

How the results depend on the processing

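The directions of St6gal1, St6gal2 and St8sia2 held in all 14 alternatives, and the 3 were called in 9 of them, the exceptions being 5 of the fits without 1 array. Knockdown minus control was 0.99 to 1.13 for St6gal1, -1.27 to -1.01 for St6gal2 and -0.84 to -0.70 for St8sia2. With the replicate block St8sia5 (-0.32) and St8sia6 (0.35) were called as well, which gave 2 members higher, with 1545 genes higher and 2301 lower over the array, 4 pathway genes higher and 12 lower, and 10 member probe sets in diffSplice. The St8sia6 value includes a probe set that passed the filter only through its knockdown arrays, so nothing is read from its call. The replicate block changed no other call of a member. With a block for the form of the label (replicate 1 against 2 and 3) the same 2 members were called (-0.32 and 0.35), again 2 higher, with 967 and 1561 genes over the array and 3 and 8 pathway genes. With no filter diffSplice called 3 member probe sets, and 2 of them, 4492251 of St6gal1 and 4436059 of St6gal2, lay under the filter otherwise. Above the 75th percentile St8sia6 was at -0.0029, 363 genes were called higher and diffSplice called 0 member probe sets. With trend and robust variances 365 genes were called higher and 731 lower, with 1 pathway gene higher. The cause of these differences was not tested.

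Without single arrays St6gal1 was at 0.99 to 1.12, St6gal2 at -1.27 to -1.08 and St8sia2 at -0.84 to -0.70, with 0 to 1 members called higher and 0 to 2 lower, 0 to 105 genes higher and 0 to 186 lower, 0 to 3 pathway genes lower and 0 to 2 member probe sets in diffSplice. Relative to its gene, probe set 4354549 of St8sia3 reached 0.030 without control replicate 1 and 0.0086 without knockdown replicate 2, beside -0.067, with a range of -0.18 to 0.030. Probe set 4531642 of St8sia4 reached -0.035 without control replicate 3, beside 0.23, with a range of -0.035 to 0.43. Neither was called. The median change of all genes stayed between -0.044 and 0.015. Of the 21 probe sets of St8sia6, 9 lay under the level filter, and each group has 3 arrays.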
